A study of Homo sapiens with 6 samples.

Results

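The genes described here are 9 members of base excision and single-strand break repair: XRCC1, PARP1, PARP2, LIG3, APTX, POLB, APEX1, OGG1 and UNG. They are 9 of 35810 genes with matched transcripts, and all 9 were among the 13737 genes with enough reads to test. The list was drawn up because XRCC1 was clearly lower after ARMC5 knockdown in these same libraries, so the list was chosen by the XRCC1 CPM of this very contrast and XRCC1 is described below without a test, and the question asked of the data is whether the other 8, its partners, shift as well. The libraries came from SPT5-AID cells, a derivative of the human colorectal adenocarcinoma line DLD-1 in which the elongation factor SPT5 carries an auxin-inducible degron. One group of 3 libraries carried an shRNA against ARMC5 (shARMC5), and the control group of 3 carried a nontargeting shRNA (shNT), both delivered by lentivirus. Both groups thus share the degron-tagged SPT5 and the viral vector, and the labels name no auxin treatment for them. ARMC5 is an adaptor of the CUL3 ubiquitin ligase, and the study examined its part in the degradation of RNA polymerase II that lacks SPT5. The methods list more than a single ARMC5 shRNA construct, and which of them these libraries carry is not given in the sources used here.

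In base excision repair, a DNA glycosylase removes a damaged base, an endonuclease cuts the backbone at the empty site, and a polymerase and a ligase fill and seal the gap. Single-strand breaks that arise directly join the same pathway after PARP enzymes detect them and build poly(ADP-ribose) chains. XRCC1 has no known enzymatic activity: it is the scaffold that binds these chains and holds polymerase beta, DNA ligase III and the end-cleaning enzymes at the break.

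Assigned reads ranged from 26201112 to 40866478 per library. The targeted gene ARMC5 was lower in the shARMC5 libraries, at 10.8, 11.97 and 12.9 CPM (reads of the gene per 1000000 reads of the library, scaled with the TMM factors of edgeR), than in the shNT libraries, at 23.0, 25.9 and 26.7 CPM. Its groups did not overlap (log2 fold change -1.09, SE 0.08, n = 3 per group). The epithelial markers EPCAM, CDH1, KRT8, KRT18 and CDX2 were present at means of 130 to 3926 CPM in shNT, and the summed fibroblast, immune and endothelial markers did not exceed 3.41 CPM in any library. Of the 10 epithelial markers listed, 7 were tested. KRT8 and KRT18 rose (log2 fold changes 0.18 and 0.25), VIL1 and CDH17 fell (log2 fold changes -1.30 and -0.27), and the summed list was 8834 to 8936 CPM in shARMC5 and 7804 to 8103 CPM in shNT. CDX1 was at 0 reads, and LGALS4 was below 1 CPM. Whether these marker differences have a part in the values below was not tested. The study's methods count replicates as biological, but the labels do not say whether these libraries came from separate cultures, and P values measure only the spread between them.

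XRCC1, the scaffold, stood at 24.2, 24.2 and 25.0 CPM in the shARMC5 libraries and at 44.4, 44.4 and 44.2 CPM in the shNT libraries. The values within each group lay close together, and every shARMC5 library lay far below every shNT library. The mean was 24.5 ± 0.43 CPM (SD, n = 3) against 44.3 ± 0.14 CPM, a ratio of 0.552. The fitted log2 fold change was -0.86 (SE 0.05), resting on 630 to 1452 reads per library. Because this contrast chose XRCC1, these values are a description. Among the 454 genes called lower in the fit over all genes, 27 had a more negative log2 fold change than XRCC1, including ARMC5 (-1.09). XRCC1 was chosen for its fall in this contrast, so its rank is no evidence of its own. The median absolute log2 fold change of all 1064 called genes was 0.20. In bulk RNA of this kind, fewer cells expressing a gene and less RNA per cell cannot be told apart.

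**Figure D1:**
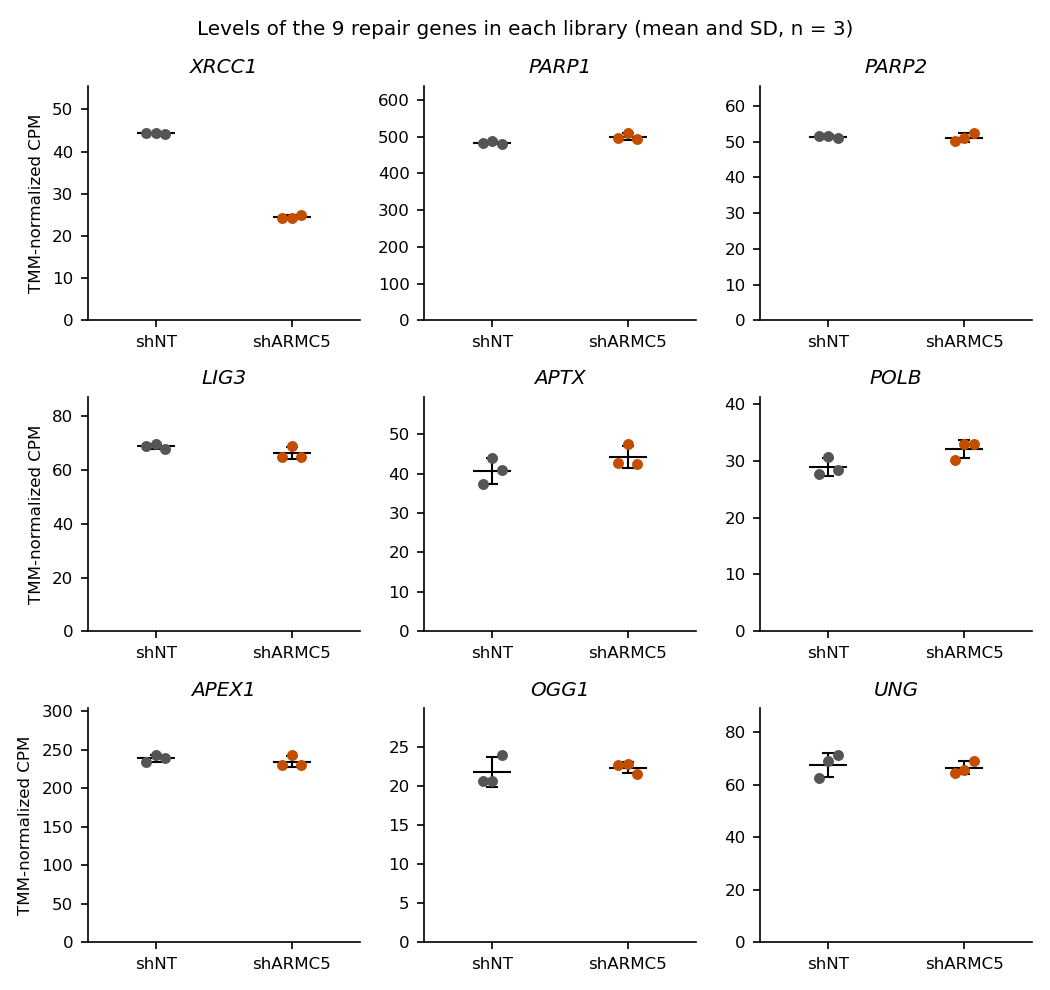
TMM-normalized CPM of the 9 repair genes in each library, with grey points for shNT and orange points for shARMC5, black lines for the mean and bars for the SD (n = 3 per group). Each panel starts at 0 and has its own scale. XRCC1 falls from 44.3 to 24.5 CPM, whereas the shARMC5 means of the other 8 genes lie between 3.79% below and 10.7% above their shNT means.

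Of the 8 partners, none was called different between the groups (edgeR quasi-likelihood test, adjusted P under 0.1), against 7.75% of all tested genes (4.44% higher and 3.30% lower). With so few genes, 0 of 8 is near that share. At an unadjusted P under 0.05 edgeR gave 1 partner, POLB, where 18.1% of all tested genes passed, and DESeq2 without length offsets, which called 6.38% of all tested genes, called none of the partners and gave none an unadjusted P under 0.05. DESeq2 with offsets for transcript length also called none and gave 1, LIG3, an unadjusted P under 0.05 (log2 fold change -0.19, unadjusted P = 0.0151, adjusted P = 0.198). Of all 13737 tested genes, DESeq2 called 568 with these offsets. An unadjusted P under 0.05 was given to 1605 with them and to 1846 without. The partners' log2 fold changes ran from -0.05 to 0.15 with a median of 0.02, beside a median of -0.0014 over all tested genes. For 1 of the 8 partners, PARP1, the CPM of the groups did not overlap, against 23.4% of all tested genes.

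PARP1 is the main sensor of strand breaks and the first enzyme to build poly(ADP-ribose) there. It had 495, 510 and 495 CPM in shARMC5 and 482, 488 and 481 CPM in shNT. All 3 shARMC5 libraries lay above all 3 shNT libraries, but the step was small: the log2 fold change was 0.05 (95% interval -0.0050 to 0.10, edgeR adjusted P = 0.332). This was the most precise estimate among the partners, with 12471 to 20131 reads per library. PARP2, the second break-responsive PARP, had 50.1, 50.9 and 52.4 CPM in shARMC5 and 51.6, 51.6 and 50.9 CPM in shNT. Its groups overlapped, and its log2 fold change was -0.01 (95% interval -0.10 to 0.08, edgeR adjusted P = 0.949).

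LIG3 encodes DNA ligase III, which XRCC1 binds directly and which seals the repaired nick. It had 65.0, 68.9 and 64.8 CPM in shARMC5 and 69.1, 69.7 and 67.7 CPM in shNT. The shARMC5 library of replicate 2 lay inside the shNT range and the other two lay below it. The log2 fold change was -0.05 (95% interval -0.14 to 0.03, edgeR adjusted P = 0.504). With offsets for the average transcript length, the log2 fold change of LIG3 was -0.19 (95% interval -0.34 to -0.03, unadjusted P = 0.0227, edgeR adjusted P = 0.305), a ratio of 0.879 with a lower end of 0.791. LIG3 was thus lower per length than per read, and it was not called on either scale. With the same offsets in edgeR, the log2 fold change of XRCC1 was -0.89 (SE 0.06), given without a test.

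POLB encodes polymerase beta, which fills the short gap and is held at the break by XRCC1. It had 30.2, 32.9 and 32.8 CPM in shARMC5 and 27.7, 30.6 and 28.4 CPM in shNT. Its groups met only where the lowest shARMC5 library fell just below the highest shNT library. The log2 fold change was 0.15 (95% interval 0.02 to 0.27, unadjusted P = 0.0281, edgeR adjusted P = 0.206), so that it did not pass the threshold over all genes. APTX encodes aprataxin, which removes the AMP left on DNA ends by failed ligation. It had 42.8, 47.5 and 42.5 CPM in shARMC5 and 37.3, 43.95 and 40.8 CPM in shNT. These groups overlapped, and the log2 fold change was 0.12 (95% interval -0.01 to 0.26, edgeR adjusted P = 0.332). POLB and APTX had the largest positive estimates among the partners, and the upper ends of their intervals correspond to ratios of 1.21 and 1.20.

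APEX1 encodes the main endonuclease for sites without a base. It had 231, 243 and 230 CPM in shARMC5 and 235, 243 and 239 CPM in shNT, and its groups overlapped (log2 fold change -0.02, 95% interval -0.09 to 0.04, edgeR adjusted P = 0.737). OGG1, the glycosylase for oxidized guanine, had 22.6, 22.8 and 21.5 CPM in shARMC5 and 20.6, 20.6 and 23.9 CPM in shNT. Here the shNT library of replicate 3 was the highest of all 6, and the log2 fold change was 0.04 (95% interval -0.11 to 0.19, edgeR adjusted P = 0.822). UNG, the glycosylase for uracil in DNA, had 64.6, 65.9 and 69.2 CPM in shARMC5 and 62.5, 69.1 and 71.4 CPM in shNT. The shARMC5 libraries lay within the shNT range, and the log2 fold change was -0.02 (95% interval -0.13 to 0.08, edgeR adjusted P = 0.858). OGG1 had the fewest reads of the 9 genes, 542 to 901 per library, and the widest interval among the partners.

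With 3 libraries in each group, an exact two-sided permutation test of a single gene cannot go below P = 0.1. PARP1 reached that smallest value, and the exact P of the other 7 partners lay between 0.2 and 0.8.

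The wider pathway was read from a list of 44 genes by role, which includes the 8 partners. None of the 44 was called by edgeR, against 7.75% of all tested genes. At an unadjusted P under 0.05 there were 4, against 18.1% of all tested genes. All 4 were higher in shARMC5, where 1343 of all tested genes passed as higher and 1138 as lower. DESeq2 called none of the 44, against 877 of all 13737 tested genes without length offsets and 568 with them. It gave 1 of the 44 an unadjusted P under 0.05, or 2 with length offsets. Over all tested genes, 1846 and 1605 passed at that level. The median log2 fold change of the list was 0.03, with 28 genes above 0 and 16 below, beside 6795 above and 6942 below among all tested genes. CPM of the groups did not overlap for 7 of the 44, against 23.4% of all tested genes.

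Among the 11 glycosylases, 5 had estimates above 0 and 6 below. MBD4, which removes thymine and uracil opposite guanine, had the only unadjusted P under 0.05 in this group, with 42.3 ± 1.82 CPM in shARMC5 and 38.8 ± 1.17 CPM in shNT (SD, n = 3; log2 fold change 0.13, edgeR adjusted P = 0.200). MUTYH, which removes adenine paired with oxidized guanine, had 13.5 ± 0.27 CPM against 15.2 ± 1.37 CPM, the most negative estimate of the whole list (log2 fold change -0.16, edgeR adjusted P = 0.3002). NEIL1 was the least expressed, at 1.55 and 1.36 CPM, and its estimate had the largest SE, 0.24. The 7 genes of break signalling ran from -0.10 for PARP3 to 0.08 for ADPRS, the hydrolase that removes ADP-ribose from serine. HPF1, the cofactor that directs PARP1 and PARP2 to serine, had a log2 fold change of 0.03, and PARG, which degrades the chains, had -0.03. No gene of this group reached an unadjusted P under 0.05.

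In the end-processing group of 8 genes, 6 estimates lay above 0. FEN1, the flap nuclease of the long-patch branch, had 177, 172 and 183 CPM in shARMC5 and 167, 167 and 168 CPM in shNT. These groups did not overlap, and the log2 fold change of 0.08 (SE 0.03) had an unadjusted P of 0.0134 and an edgeR adjusted P of 0.137. APLF, which also acts at XRCC1-bound breaks, had a log2 fold change of 0.15 (SE 0.12) and was not called. TDP1, which frees trapped topoisomerase from DNA ends, had -0.02 (SE 0.06). In the gap-filling and ligation group of 18 genes, 13 estimates lay above 0, and POLB and RFC4 had an unadjusted P under 0.05. RFC4, a subunit of the clamp loader, had 66.5 ± 0.83 CPM against 62.5 ± 2.52 CPM (log2 fold change 0.09, edgeR adjusted P = 0.258). LIG1, the ligase of the long-patch branch, had -0.01 (SE 0.03) and PCNA, the sliding clamp, had 0.0039 (SE 0.03).

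**Figure D2:**
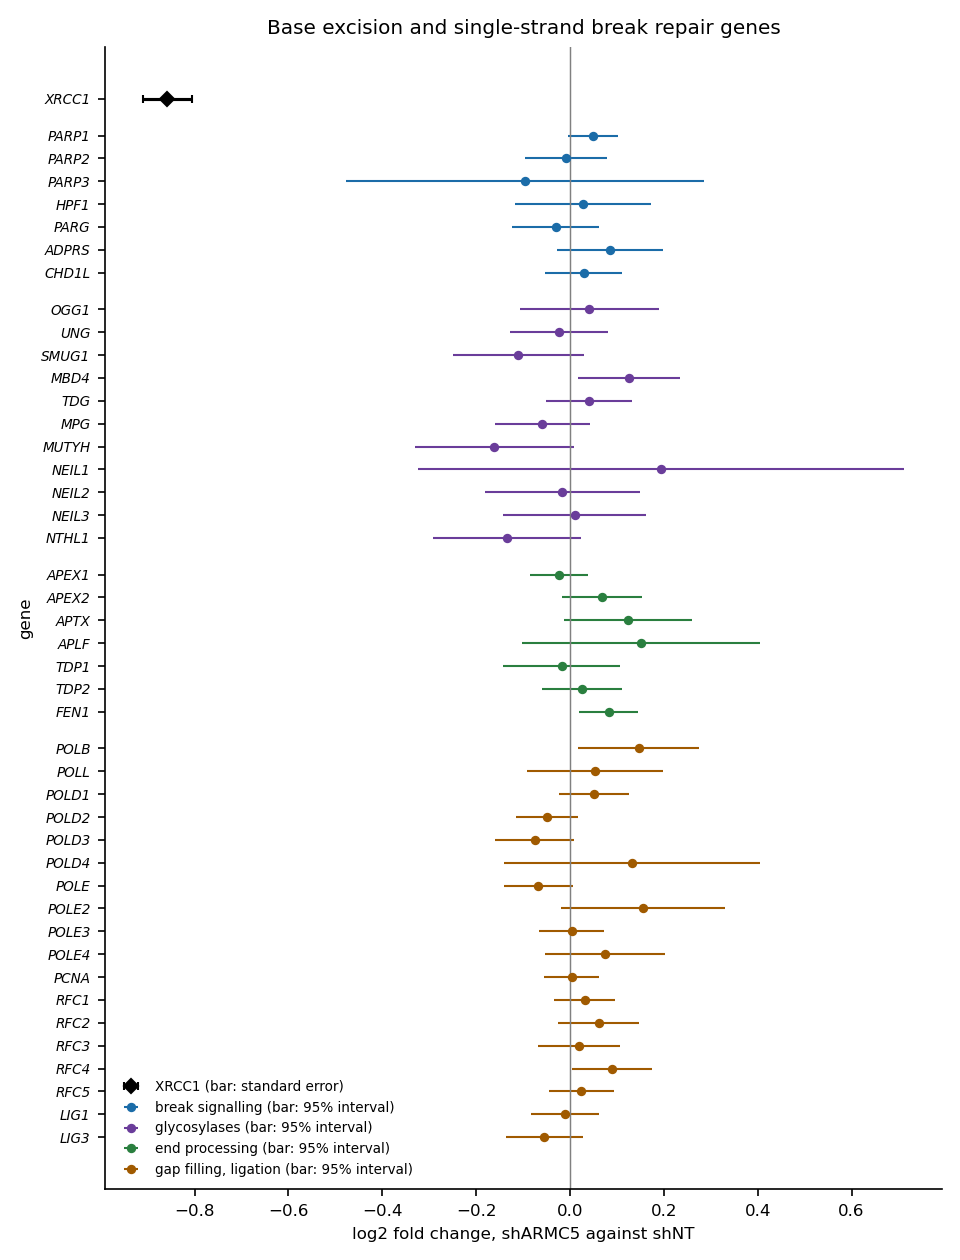
Log2 fold change of shARMC5 against shNT (horizontal axis) for XRCC1 and for genes of the wider list, ordered and coloured by role. Points are edgeR estimates from 3 libraries per group, with the standard error as the bar for XRCC1 and the 95% interval for the others. XRCC1 lies at -0.86, and the other estimates lie between -0.16 and 0.19.

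Other repair pathways were read the same way for comparison, with 40 genes of end joining, nucleotide excision and mismatch repair. One of the 40 was called, a share of the list below the 7.75% of all tested genes. It was NHEJ1, the end-joining factor also known as XLF, which rose from 14.96 ± 1.499 to 18.3 ± 0.29 CPM (SD, n = 3; log2 fold change 0.29, SE 0.08, edgeR adjusted P = 0.0396). This call was absent when the replicate 2 library of either group was left out and with offsets for transcript length. It was also absent with unmatched transcripts kept and with limma on TPM. No gene of the 23 nucleotide excision or the 8 mismatch repair genes was called in the main edgeR fit. In each list 1 gene had an unadjusted P under 0.05, against 18.1% of all tested genes. With the replicate block, which called 1766 genes, MLH3 and EXO1 of mismatch repair were called. EXO1 was also called with genes of at least 1 count (1537 calls). UVSSA of nucleotide excision was called without shNT replicate 2 (1085 calls). DESeq2 without length offsets also called none of the nucleotide excision or mismatch repair genes. These lists had 0 and 2 genes at an unadjusted P under 0.05. It called 2 of the 9 end joining genes, NHEJ1 and XRCC6, with 4 at an unadjusted P under 0.05. Over all tested genes this DESeq2 fit called 6.38%, and 1846 of 13737 had an unadjusted P under 0.05. PRKDC of end joining was lower in shARMC5, with a log2 fold change of -0.26 (SE 0.13, edgeR adjusted P = 0.405). DESeq2 with length offsets, which called 568 genes, called PRKDC lower. XRCC6, PRKDC, MLH3, EXO1 and UVSSA were named after their values were seen. Whether the wider list of 44 differs from these 40 was not tested.

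Levels between genes were compared per transcript length, in TPM, the deposited unit that divides reads by transcript length and scales each library to the same total, summed per gene. In shNT, APEX1 was the highest at 272 ± 4.95 TPM (SD, n = 3) and PARP1 the second at 177 ± 6.37 TPM. UNG, POLB, APTX and PARP2 followed between 49.3 and 44.9 TPM, and each overlapped its neighbour in the order. XRCC1 was the seventh at 39.2 ± 0.57 TPM, apart from PARP2 above it and from LIG3 below it at 34.3 ± 2.96 TPM, and OGG1 was the lowest at 19.6 ± 1.16 TPM. LIG3 was the only partner whose TPM did not overlap between the groups, with 28.1, 30.2 and 30.9 TPM in shARMC5 and 37.3, 31.4 and 34.1 TPM in shNT, where 16.3% of all tested genes did not overlap. In shARMC5, XRCC1 was at 20.9 ± 0.72 TPM, below LIG3 at 29.7 ± 1.45 TPM, and its range of 20.2 to 21.6 TPM overlapped that of OGG1, 19.5 to 22.2 TPM. APEX1 and PARP1 again headed the order, at 264 ± 11.1 and 180 ± 4.76 TPM.

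XRCC1 and DNA ligase III act as a pair, and their relative transcript level was read in each library. The ratio of XRCC1 to LIG3 TPM was 1.07, 1.24 and 1.14 in shNT and 0.767, 0.668 and 0.681 in shARMC5. Per transcript length, XRCC1 was thus the more abundant of the pair in every shNT library and the less abundant in every shARMC5 library. By reads XRCC1 lay below LIG3 in both groups, with means of 44.3 against 68.8 CPM in shNT and 24.5 against 66.2 CPM in shARMC5. The TPM of both genes rests on an estimated split of reads between transcripts of unlike length. The ratio of XRCC1 to POLB TPM was 0.841, 0.758 and 0.857 in shNT and 0.438, 0.375 and 0.378 in shARMC5. Since XRCC1 chose the list, its ratios carry no test.

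**Figure D3:**
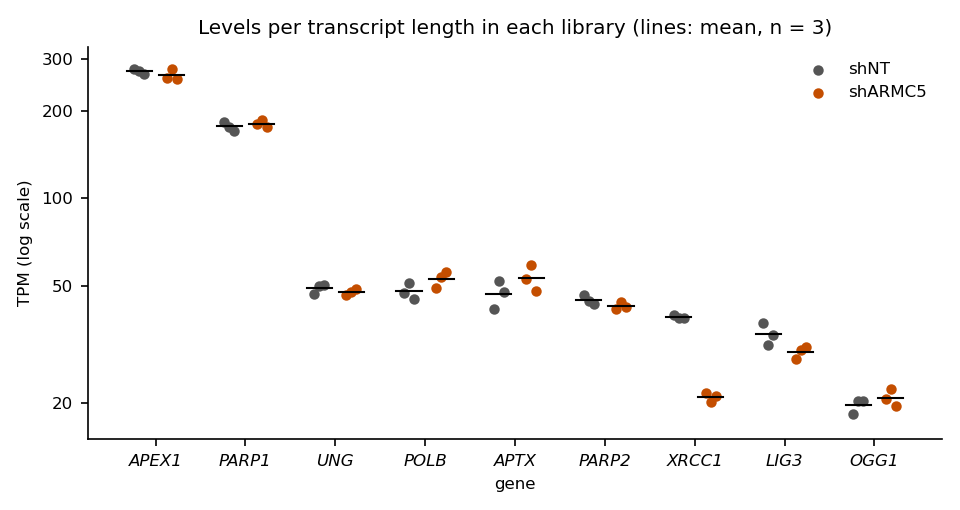
TPM of the 9 genes in each library on a log axis, ordered by the shNT mean, with grey points for shNT, orange points for shARMC5 and black lines for the means (n = 3 per group). XRCC1 moves from 39.2 TPM, above LIG3, to 20.9 TPM, where it overlaps OGG1.

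XRCC1 lies on chromosome 19 at chr19:43543311-43580473 on the minus strand (GRCh38, GENCODE 44; ENSG00000073050). The deposited files list 9 of its transcripts, of which 4 had enough reads to fit, and these 4 held 98.8% to 100% of the gene's reads in every library. ENST00000543982 led, with 71.8% to 78.1% of the reads. It differs from the canonical transcript, ENST00000262887, by the absence of exon 2 and in its ends. Exon 2 is a coding exon of 93 bases or 31 codons at chr19:43574910-43575002, and its absence keeps the reading frame. The exon is shown here in capitals, as the coding exon that the leading transcript lacks, read from GRCh38 on the gene's strand.
Exon 2 of the canonical transcript: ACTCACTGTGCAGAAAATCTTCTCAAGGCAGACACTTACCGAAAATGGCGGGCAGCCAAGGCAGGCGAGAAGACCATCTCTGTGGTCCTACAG

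The transcript without exon 2 had 17.4, 17.6 and 18.7 CPM in shARMC5 and 32.5, 34.7 and 34.1 CPM in shNT (log2 difference -0.91, SE 0.06). The canonical transcript had 3.45, 3.34 and 2.92 CPM in shARMC5 and 5.72, 3.70 and 3.64 CPM in shNT (log2 difference -0.42, SE 0.26). The shNT library of replicate 1 was well above the other shNT libraries for the canonical transcript, which widened its error. A transcript that retains an intron, ENST00000595789, had 1.995, 2.85 and 2.51 CPM against 4.83, 4.42 and 4.45 CPM (log2 difference -0.90, SE 0.23). A short coding model, ENST00000594107, had 1.09, 0.425 and 0.852 CPM against 1.23, 1.598 and 1.98 CPM (log2 difference -1.02, SE 0.48). For each of the 4 transcripts, the estimates of the shARMC5 libraries all lay below those of the shNT libraries, which describes the same reads that chose XRCC1 and carries no test. The canonical transcript and the one without exon 2 share nearly all of their remaining exonic sequence in the annotation, and salmon divides the reads they share by estimation. The files give the canonical transcript a length of 2802 bases where GENCODE 44 has 2052, against 1994 in both for the transcript without exon 2, so the model behind the estimate is another version and exon 2 is only a part of what separated the transcripts. The shares of these transcripts are therefore estimates and not a count of reads that contain or skip exon 2.

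**Figure D4:**
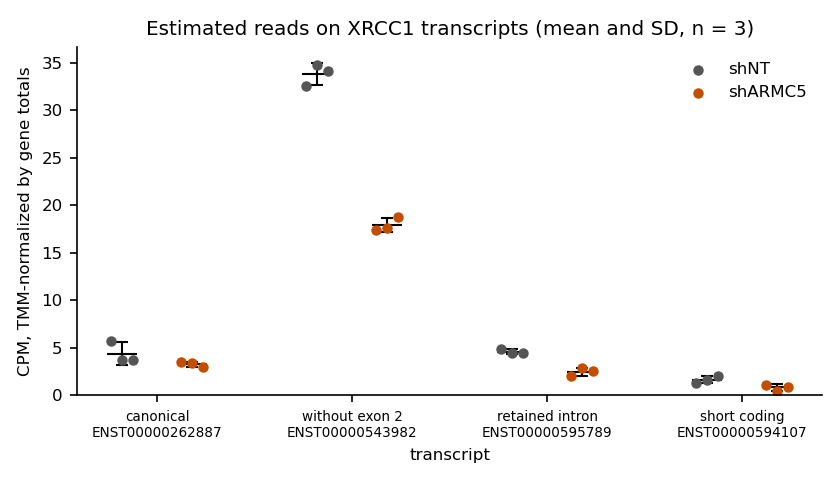
Estimated reads on the 4 fitted XRCC1 transcripts in each library, in CPM, with grey points for shNT, orange points for shARMC5, and black lines and bars for the mean and SD (n = 3 per group). The transcript without exon 2 carries most reads in both groups, and every orange point lies below every grey point of the same transcript.

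The partners' transcripts were tested in the fit over all 51892 transcripts with enough reads, in which 0.00771% were called. Of 126 partner transcripts in the files, 51 were tested and none was called (edgeR, adjusted P under 0.1), and 1 had an unadjusted P under 0.05. This was ENST00000468275 of APTX, with no reads in the 3 shARMC5 libraries and 22.8, 27.1 and 62.3 estimated reads in the shNT libraries (edgeR adjusted P = 0.355). The share of all tested transcripts at that unadjusted threshold is not given here, so this count was not set against a background. A single transcript held 99.9% of PARP1 reads in both groups, while the leading transcript held 76.5% of APEX1 reads in shNT and 76.6% in shARMC5, and 62.9% and 60.9% of POLB reads. For APTX no transcript held more than 24.04% of the reads on average.

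The RNA library kit is not stated to keep strand, so reads of overlapping genes on opposite strands could be mixed. At XRCC1, the overlapping gene PINLYP had 3 to 10 reads per library and a second overlapping gene on the same strand had 0, against at least 630 reads for XRCC1. UNG overlaps ACACB on the same strand, and ACACB fell (log2 fold change -0.27, edgeR adjusted P = 0.0526) while UNG was not called. OGG1 overlaps CAMK1 and TADA3, which had log2 fold changes of 0.13 and 0.08 and were not called. LIG3 overlaps RFFL, which had -0.09 and was not called.

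The genes on either side of XRCC1 were read to place its lower level on the chromosome. None of the 4 nearest tested genes on each side was called by edgeR, against 7.75% of all tested genes, so that 0 of 8 is near the background. Likewise none of the 8 had an unadjusted P under 0.05 by edgeR or DESeq2. Over all tested genes, 18.1% passed by edgeR and 1846 of 13737 by DESeq2 without length offsets. DESeq2 gave 3 of them no adjusted P and called none of the rest. Towards lower coordinates, ETHE1, a mitochondrial sulfur dioxygenase, had 23.4, 25.1 and 23.5 CPM in shARMC5 and 21.6, 25.0 and 25.7 CPM in shNT (log2 fold change -0.0038, SE 0.07). Towards higher coordinates, IRGQ had 19.8 CPM in both groups (log2 fold change -0.0019, SE 0.07), and ZNF576 and ZNF428 had log2 fold changes of 0.0016 (SE 0.08) and 0.09 (SE 0.07). These 4 neighbours had 523 to 988 reads per library, of the order of the XRCC1 reads. LYPD3, PHLDB3, ZNF575 and SRRM5 had log2 fold changes of -0.12, 0.34, 0.43 and 0.55. They had at most 66 reads in any library and SE values of 0.27 to 0.54, so that a change of the size seen for XRCC1 could not be read as firmly there.

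**Figure D5:**
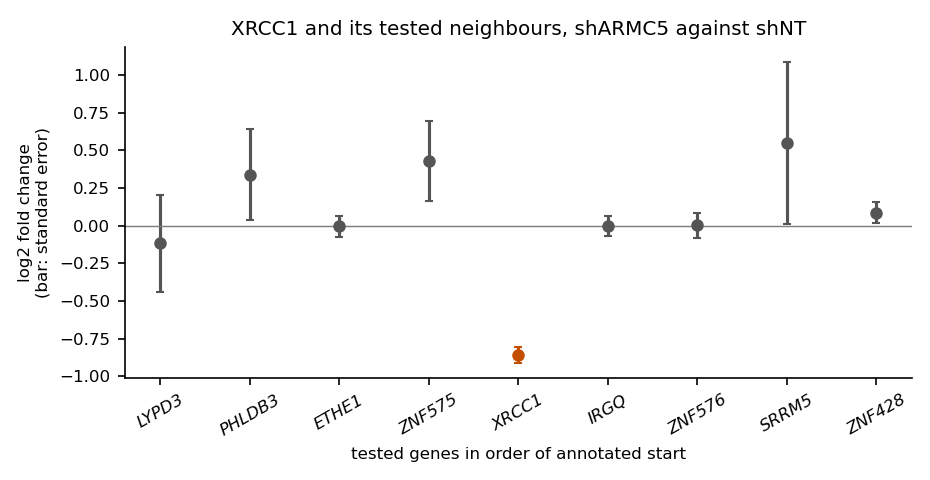
Log2 fold change of shARMC5 against shNT for XRCC1 (orange) and the 4 nearest tested genes on each side (grey), in order of their annotated starts along the chromosome, with the standard error as the bar (3 libraries per group). XRCC1 lies at -0.86, and ETHE1, IRGQ, ZNF576 and ZNF428 lie between -0.0038 and 0.09. LYPD3, PHLDB3, ZNF575 and SRRM5, with few reads, lie between -0.12 and 0.55.

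Among the 10368 genes that averaged 5 CPM or more, the profile most like that of XRCC1 over the 6 libraries was MYO15B, with a root mean square difference of 0.082 in centred log2(CPM + 0.5). ZNF714 (0.088), ENSG00000283761 (0.098), STK36 (0.13) and ARMC5 itself (0.14) followed. MYO15B had 17.1, 15.4 and 16.7 CPM in shARMC5 and 27.6, 26.3 and 27.7 CPM in shNT. STK36 had 6.5002, 6.16 and 5.15 CPM in shARMC5 and 10.8, 10.9 and 12.5 CPM in shNT. All 5 genes were lower in shARMC5 in every library, as the choice by likeness to XRCC1 requires, and none of them is a base excision or single-strand break repair gene.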

How the data were processed

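RNA-seq libraries of SPT5-AID DLD-1 cells, 3 with shARMC5 and 3 with shNT, were analysed. Per the methods and the submitters' processing notes, the authors used cutadapt 4.2 for trimming and Salmon 1.9.0, with its GC-bias option, to estimate reads per transcript. The transcript set is not given in the sources used here. The deposited files hold estimated counts, TPM, lengths and effective lengths. The 165533 of 177456 transcripts whose identifiers matched GENCODE 44 without version were summed to 35810 genes; the 11923 others held 2.96% to 3.04% of reads and were left out. Estimated counts were rounded, and genes with 10 or more counts in 3 or more libraries were tested (13737 genes) with edgeR 4.0.16 (TMM, quasi-likelihood, robust; condition only; Benjamini-Hochberg adjusted P under 0.1; R 4.3.3). Common biological variation was 0.0643. TPM deposited by the authors was used for levels between genes and, as log2(TPM + 0.5), in limma 3.58.1. The scripts were tested on simulated counts. There edgeR recovered 99% of the genes given a log2 change of 1 and 68% of those given 0.3. At the adjusted P threshold of 0.1, 15.7% of the edgeR calls and 17% of the DESeq2 calls were false. Changes as small as the partner estimates were not simulated. Alternatives were DESeq2 1.42.0, other scalings and filters, length offsets, the replicate number as a block, unmatched transcripts kept, adjusted P under 0.05 and each library left out.

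The members and lists were chosen with earlier results of these data known. Besides the 9 members and ARMC5, genes were named by role in the lists, as the called genes of the comparison lists with the smallest P, as the 4 tested neighbours on each side of XRCC1, and as the 5 nearest profiles. Library totals of 26201112 to 40866478 assigned reads set the counting precision. Sequence and coordinates came from GRCh38. Some items of the lists enter the counts and are not reported here by name.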

Additional observations from a re-analysis of the deposited data

How the results depend on the processing

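None of the 8 partners was called in any of the 17 alternatives, and the smallest adjusted P of any partner in the fits tried was 0.111, for POLB. At an unadjusted P under 0.05 there were 3 partners with the replicate block, 2 with genes of at least 1 count, 2 without shNT replicate 2, 0 without shARMC5 replicate 2 or 3 or shNT replicate 1 or 3, 0 with DESeq2 without offsets and 1 in the rest. The counts over all tested genes, in the same order, were 3030, 3120, 2607, 1944 to 2148, 1846 and 1410 to 2487. PARP2 and UNG, both close to 0, changed sign when a library was left out: PARP2 ranged from -0.0275 to 0.0075, the latter without the shARMC5 library of replicate 1, and UNG ranged from -0.0778 to 0.0162, the latter without the shNT library of replicate 3. The other partners kept their sign over all alternatives, with log2 fold changes of -0.199 to -0.0392 for LIG3, 0.0652 to 0.1938 for APTX, 0.1172 to 0.1902 for POLB, 0.0294 to 0.0565 for PARP1, -0.0513 to -0.0094 for APEX1 and 0.0045 to 0.1141 for OGG1. LIG3 was most negative where transcript length entered (length offsets or TPM), and APTX was lowest without shNT replicate 1. The XRCC1 log2 fold change ranged from -0.892 to -0.850. The 44 genes of the wider list gave 0 calls in 16 of 17 alternatives and 1, FEN1, with the replicate block. The tested partner transcripts, 51 in the main fit and 48 to 51 with a library left out, gave 0 calls in each of these fits. The main fit called 0.00771% of all tested transcripts, so 0 calls among so few says little about the partners. The shares of all transcripts called with a library left out are not given here.

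The count of 1064 called genes was 235 with length offsets in edgeR, 568 with DESeq2 and length offsets, 532 with unmatched transcripts kept, 67 with limma on TPM and 676 at an adjusted P under 0.05. It ranged from 536 (without shNT replicate 1) to 1085 (without shNT replicate 2) when a library was left out, and was 600 without shARMC5 replicate 2 and 694 without shNT replicate 3. The 610 higher and 454 lower calls were 596 and 454 with DESeq2 size factors in edgeR, and 503 and 374 with DESeq2 without offsets. They became 458 and 495 when scaled by library size only, so the excess of higher calls was absent with that scaling. The higher and lower calls were 33 and 34 with limma on TPM and 300 and 268 with DESeq2 and length offsets. Those fits changed more than the scaling. The 40 other repair genes gave 1 call, and 0 with length offsets in edgeR, with unmatched transcripts kept and with limma, 2 with DESeq2 without offsets (NHEJ1, XRCC6) and 3 with genes of at least 1 count (NHEJ1, PAXX, EXO1), these names being chosen after their values were seen. With a library left out they gave 0 to 1 (0 without shARMC5 replicate 2; the call without shNT replicate 2 was UVSSA). DESeq2 with offsets called PRKDC, as lower, in place of NHEJ1. The cause of these differences was not tested.

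Same-numbered replicates did not deviate together (correlations -0.022, 0.015 and 0.109 over 10369 genes), so the numbers were not taken as pairs. With the replicate block 1766 genes were called, 0 of the partners, 1 of the wider list and 4 of the other repair genes (XRCC6, NHEJ1, MLH3 and EXO1). Low depth went with wide errors for NEIL1 and the sparse neighbours of XRCC1.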
